A study of Mus musculus with 4 samples.

Results

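Acute phase genes encode secreted proteins whose production climbs during infection, injury and inflammation. The liver is the main source of these proteins in the blood, and epithelia that face the outside, including the lung, make several of them locally. The classic inducers are IL-6 family cytokines, which act through the transcription factor STAT3, and IL-1 and TNF, which act through NF-kB, with C/EBP factors acting beside both. The set described here holds 10 such genes, chosen by name: the serum amyloid gene Saa3, the protease inhibitor gene Serpina3n, the plasma binding proteins Orm1 and Hp, the antimicrobial genes Lcn2 and Reg3g, the signalling modulator Lrg1 and the fibrinogen chains Fga, Fgb and Fgg. Every gene was read by 1 probe set with a single symbol, so the set covered 10 of the 18194 genes on the array.

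The cells were type II alveolar epithelial cells (AEC2), which secrete surfactant and renew the alveolar epithelium, sorted by flow cytometry from mouse lungs. There were 4 groups with 1 array each: wild-type mice without treatment, Tlr4-/- mice without treatment, wild-type mice 4 days after bleomycin, and Tlr4-/- mice 4 days after bleomycin. TLR4 is an innate immune receptor that signals to NF-kB, and bleomycin is a drug that injures the lung epithelium. Each array held RNA of cells pooled from 4 to 5 mice, so the spread among mice or among repeat arrays of a group is unknown. The sources used here do not give strain, age, sex, bleomycin dose or the kind of Tlr4 mutation.

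Signals are log2 values per probe set, and a difference of 1 is 2-fold. A limma fit on the brighter genes gave a standard deviation of 0.23 for a difference between 2 arrays. Brighter genes are those with a mean signal above the median of all genes. The value of 0.23 serves below as the spread between arrays, also for Orm1, Fga and Fgb, which were too dim for that fit. It comes from the difference between the genotypes' responses to bleomycin and not from replicate arrays. The fit on all genes gave a smaller value, 0.19. The 11 AEC2 markers on the array had a mean signal between 12.66 and 12.87 on the 4 arrays, so the labelled cell type was present on each. The 9 club and secretory airway markers had a mean between 9.26 and 10.48. The brightest of these 9 reached 13.51 to 13.93, so the markers do not show how pure the cells were. Of the 4 Tlr4 probe sets, 1 was lower in the Tlr4-/- arrays, by -1.63 untreated and -2.68 at day 4, and 2 were higher in both. The fourth did not differ beyond the spread, and which of them lie in the mutated part is not known here.

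RefSeq (GRCm38.p6) sequence before the transcription start was available for 8 of the 10 genes and is shown for 6 of them: Saa3, Reg3g and Lcn2, which were called higher by limma, and the fibrinogen chains, which share a locus. The Serpina3n window overlaps the span of the annotated gene next to its start and the Lrg1 gene was not called, so these were searched but are not shown. The 250 bases upstream of each start were searched on both strands for the STAT motif TTCNNNGAA, an NF-kB motif (GGG and CC separated by 5 bases of any kind) and the C/EBP motif TTNNGNAA, where N is any base. Matches are in capitals, and neighbouring or overlapping matches run together. The Saa3 window (chr7:46715677-46715926, minus strand) lies upstream of its listed start but inside the span of the whole annotated gene. The others are Reg3g (chr6:78468875-78469124, minus), Lcn2 (chr2:32387740-32387989, minus), Fgg (chr3:83007474-83007723, plus), Fga (chr3:83025903-83026152, plus) and Fgb (chr3:83049864-83050113, minus).
Saa3: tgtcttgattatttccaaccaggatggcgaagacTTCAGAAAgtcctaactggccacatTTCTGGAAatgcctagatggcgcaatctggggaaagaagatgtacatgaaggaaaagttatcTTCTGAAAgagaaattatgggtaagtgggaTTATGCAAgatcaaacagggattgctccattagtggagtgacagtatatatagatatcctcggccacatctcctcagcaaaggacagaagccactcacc
Reg3g: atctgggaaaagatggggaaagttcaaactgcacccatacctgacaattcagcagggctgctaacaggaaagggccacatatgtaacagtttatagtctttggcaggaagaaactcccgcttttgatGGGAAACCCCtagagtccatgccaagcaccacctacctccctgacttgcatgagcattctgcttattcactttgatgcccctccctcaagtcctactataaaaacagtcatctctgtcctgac
Lcn2: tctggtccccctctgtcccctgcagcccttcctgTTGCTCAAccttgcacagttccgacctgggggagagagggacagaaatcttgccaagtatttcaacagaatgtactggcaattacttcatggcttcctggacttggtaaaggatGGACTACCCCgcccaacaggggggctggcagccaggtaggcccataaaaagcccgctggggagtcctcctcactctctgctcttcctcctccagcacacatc
Fgg: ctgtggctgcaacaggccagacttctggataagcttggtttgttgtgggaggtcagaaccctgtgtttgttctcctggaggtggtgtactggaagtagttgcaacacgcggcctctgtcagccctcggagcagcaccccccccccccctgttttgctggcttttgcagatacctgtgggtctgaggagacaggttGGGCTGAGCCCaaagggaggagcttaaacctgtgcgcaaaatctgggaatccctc
Fga: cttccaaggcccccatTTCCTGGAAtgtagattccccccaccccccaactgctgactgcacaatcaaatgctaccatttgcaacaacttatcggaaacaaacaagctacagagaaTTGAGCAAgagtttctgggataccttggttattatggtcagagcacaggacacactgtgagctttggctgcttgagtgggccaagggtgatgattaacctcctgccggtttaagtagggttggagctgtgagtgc
Fgb: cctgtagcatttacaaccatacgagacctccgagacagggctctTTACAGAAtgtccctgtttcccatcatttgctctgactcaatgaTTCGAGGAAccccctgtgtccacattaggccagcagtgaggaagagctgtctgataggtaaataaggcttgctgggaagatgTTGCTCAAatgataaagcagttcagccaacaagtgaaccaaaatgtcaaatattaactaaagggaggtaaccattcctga

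Saa3 held 4 C/EBP matches, one of them TTATGCAA at bases -99 to -92 from the start, and 0 matches to the other motifs. Reg3g held 1 NF-kB match, GGGAAACCCC, at -123 to -114, and Lcn2 held 1 NF-kB and 1 C/EBP match. Among the fibrinogen chains, Fga and Fgb each held 1 STAT match, TTCCTGGAA at -234 to -226 and TTCGAGGAA at -162 to -154. They also held 1 and 2 C/EBP matches, and TTGCTCAA lay at -80 to -73 in Fgb. Fgg held 2 overlapping NF-kB matches, which are the same place read on each strand, and 0 STAT matches. Counting Serpina3n and Lrg1 too, 2 of 8 members had a STAT match, against 7.02% of the 32851 RefSeq windows of this length. An NF-kB match was present in 5 of 8 (45.8% of all windows) and a C/EBP match in 5 of 8 (36.8%). These are matches of letters and not measured binding.

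Orm1, Saa3, Serpina3n and Reg3g were at least 2-fold higher after bleomycin in wild type, Orm1 and Reg3g also in Tlr4-/-, while Fga and Fgg were lower in both genotypes. Lcn2 was higher by less than 2-fold in both genotypes. Hp was lower by -0.28 and -0.24, close to the spread between arrays, Lrg1 was higher beyond that spread in wild type alone, and Fgb had differences of 0.20 and -0.27. Without any filter on dim genes, 4 of the 10 members were at least 2-fold higher in wild type (1.82% of all genes) and 0 at least 2-fold lower (0.445%). In Tlr4-/- 2 of 10 were at least 2-fold higher (1.88% of all genes) and 1 at least 2-fold lower (0.775%). The median difference of the 10 members was 0.56 in wild type and 0.11 in Tlr4-/-, against 0.00 and -0.03 for all genes. Among the 7 members that passed a filter on brightness (a mean over the 4 arrays above the median of all genes), 3 were at least 2-fold higher in wild type (2.55% of the brighter genes) and 1 in Tlr4-/- (2.45%), and 0 were 2-fold lower in either (0.308% and 0.89%). In bulk RNA of this kind, more cells of a type and more RNA per cell cannot be told apart.

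**Figure D1:**
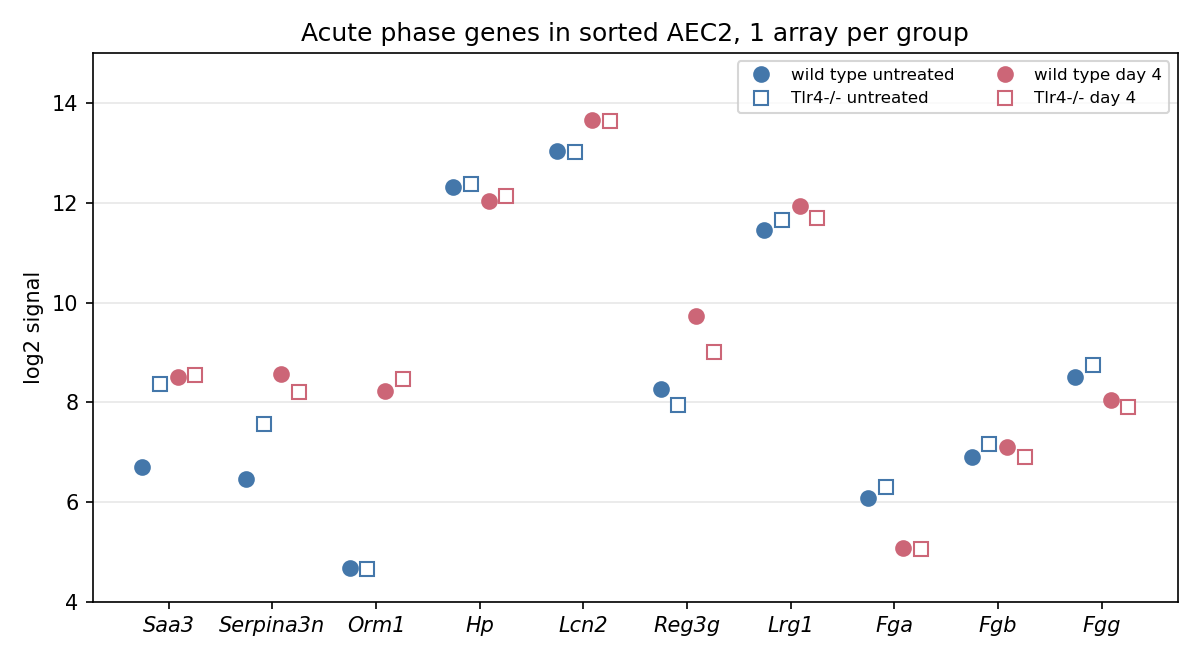
Log2 signal of each member (y axis) on the 4 arrays, with filled circles for wild type, open squares for Tlr4-/-, blue for untreated and red for day 4 after bleomycin. Orm1 separates the treatments most widely, from 4.65 and 4.68 untreated to 8.24 and 8.47 at day 4, whereas Saa3 is low on the wild-type untreated array only.

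Orm1 encodes orosomucoid, an abundant plasma glycoprotein that binds drugs and lipids and dampens immune reactions (chromosome 4, 63344556 to 63348163, GRCm38.p6). Its signal was 4.68 in wild type and 4.65 in Tlr4-/- when untreated, and 8.24 and 8.47 at day 4. Both untreated arrays were thus dim, within the lowest 10% of gene signals (percentiles 9.12 and 9.09), and both day 4 arrays were far above them. The difference of 3.56 in wild type, 11.8-fold, was the second highest of the 18194 genes, at rank 2, and that of 3.81 in Tlr4-/-, 14.1-fold, was the highest, at rank 1. Without detection calls the untreated level is uncertain, and with it the size of the fold. Because its mean over the 4 arrays lay below the median of all genes, Orm1 was left out of the fit on brighter genes. In the fit without a filter it rose by 3.69 ± 0.13 (SE, limma, higher in 2 of 2 genotypes, adjusted p = 0.00875), which was rank 1 of 18194 genes by p. Leaving out the wild-type day 4 array or the Tlr4-/- day 4 array ended that call (limma adjusted p = 0.112 and 0.150), at differences of 3.80 and 3.57. Every fit that leaves out 1 array for a bleomycin difference, here and below, has no genotype term. In the fit on brighter genes, leaving out either day 4 array ended nearly all calls of any gene. A call lost there is thus not particular to a member. The related genes Orm2 and Orm3 stayed between 4.64 and 5.12 on all arrays, and neither passed limma without the filter.

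Saa3 encodes a serum amyloid A protein, an apolipoprotein made outside the liver by epithelia, macrophages and fat (chromosome 7, 46711998 to 46719615). Its signals were 6.69 in wild type untreated, 8.37 in Tlr4-/- untreated, 8.50 in wild type at day 4 and 8.56 in Tlr4-/- at day 4. The wild-type untreated array stood alone at the low end, and the other 3 arrays lay within 0.18 of each other. After bleomycin Saa3 was 3.50-fold higher in wild type and 1.14-fold higher in Tlr4-/-, the latter within the spread between arrays. The fit on brighter genes called it, at 0.99 ± 0.28 (SE, limma, higher in 2 of 2 genotypes, adjusted p = 0.0411), but the call held in 2 of 17 alternative fits. With the wild-type untreated array left out and no genotype term, the difference was 0.15 (limma adjusted p = 0.675), and leaving out either day 4 array also ended the call. The other serum amyloid genes measured here, Saa1 and Saa2, lay between 5.06 and 6.79 and differed by at most 0.32 after bleomycin in any genotype.

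Serpina3n encodes an inhibitor of serine proteases such as granzyme B and neutrophil elastase (chromosome 12, 104406646 to 104414334). The 4 signals were 6.46 in wild type untreated, 7.57 in Tlr4-/- untreated, 8.56 in wild type at day 4 and 8.21 in Tlr4-/- at day 4. Both untreated arrays were below both day 4 arrays, with wild type the lowest when untreated and the highest at day 4. Serpina3n was 4.29-fold higher after bleomycin in wild type and 1.56-fold higher in Tlr4-/-. It was called in the fit on brighter genes, at 1.37 ± 0.26 (SE, limma, higher in 2 of 2 genotypes, adjusted p = 0.00515). The mean of its untreated signals lay below the filter's limit, so it entered that fit through its day 4 signals. The fit without the filter, which does not select on those signals, did not call it (limma adjusted p = 0.125). The call held in 5 of 17 alternative fits, not without the wild-type day 4 array or the Tlr4-/- day 4 array (limma adjusted p = 0.311 and 0.407).

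Reg3g encodes a lectin secreted by epithelia that kills Gram-positive bacteria (chromosome 6, 78466269 to 78468874). Its signals were 8.26 in wild type and 7.95 in Tlr4-/- untreated, and 9.736 and 9.002 at day 4. Day 4 arrays were higher than untreated arrays, and wild type was above Tlr4-/- at both times. The bleomycin difference was 2.79-fold in wild type and 2.08-fold in Tlr4-/-. Reg3g rose by 1.27 ± 0.17 (SE, limma, higher in 2 of 2 genotypes, adjusted p = 0.000431) and was still called without the filter (limma adjusted p = 0.0277). It was called in 12 of 18 alternative fits, and not without the wild-type day 4 array (limma adjusted p = 0.193) or the Tlr4-/- day 4 array (0.164). Its relatives Reg3a and Reg3b, below the filter, lay between 4.51 and 5.15.

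Lcn2 encodes lipocalin 2, which starves bacteria of iron by binding their siderophores (chromosome 2, 32384637 to 32387739). The signal went from 13.03 in wild type and 13.01 in Tlr4-/- untreated to 13.67 and 13.63 at day 4. The genotypes were nearly equal at each time, and both day 4 arrays were higher. The highest probe sets with 1 gene symbol reached 14.2 to 14.3, and whether the array limits the signal of Lcn2 was not tested. Its fold was 1.55 in wild type and 1.53 in Tlr4-/-. Lcn2 rose by 0.63 ± 0.15 (SE, limma, higher in 2 of 2 genotypes, adjusted p = 0.0246), was not called without the filter (limma adjusted p = 0.0827), and held in 5 of 18 alternative fits. Leaving out any array but the Tlr4-/- untreated one ended the call.

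Lrg1 encodes a leucine-rich glycoprotein that modulates TGF-beta signalling in vessels (chromosome 17, 56119678 to 56121946), and Hp encodes haptoglobin, which captures free haemoglobin (chromosome 8, 109575128 to 109579172). Lrg1 read 11.45 in wild type and 11.65 in Tlr4-/- untreated and 11.93 and 11.69 at day 4. It was 1.40-fold higher after bleomycin in wild type, beyond the spread between arrays, and 1.02-fold higher in Tlr4-/-. Hp read 12.31 and 12.38 untreated and 12.03 and 12.14 at day 4. Both genes were bright on every array, and Hp was lower at day 4, by -0.28 in wild type and -0.24 in Tlr4-/-. Neither passed limma in the fit on brighter genes (adjusted p = 0.383 for Lrg1 and 0.350 for Hp) or in any of 18 alternative fits.

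Fibrinogen is a hexamer of 3 chains that thrombin converts to fibrin, and the genes of its alpha (Fga), beta (Fgb) and gamma (Fgg) chains lie side by side within 42.1 kb of chromosome 3 (83007724 to 83049863). In the liver they are raised together in the acute phase. Fga had signals of 6.08 and 6.31 in untreated wild type and Tlr4-/-, and of 5.08 and 5.07 at day 4. Both day 4 arrays were lower, by -0.998 in wild type, just short of 2-fold, and by -1.24 in Tlr4-/-, 2.37-fold. Fga was below the filter on brightness and fell by 1.12 ± 0.13 in the fit without it (SE, limma, lower in 2 of 2 genotypes, adjusted p = 0.0276). That call was lost without the wild-type day 4 array (limma adjusted p = 0.209) or the Tlr4-/- day 4 array (0.418).

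Fgg had signals of 8.51 and 8.75 untreated and of 8.04 and 7.91 at day 4. It was lower at day 4 in both genotypes, by -0.47 and -0.84, and fell by 0.66 ± 0.16 in the fit on brighter genes (SE, limma, lower in 2 of 2 genotypes, adjusted p = 0.0248). The Fgg call held in 3 of 17 alternative fits and was lost without the filter (limma adjusted p = 0.104) or without any single array other than the wild-type untreated one. Fgb went a different way in each genotype, from 6.90 to 7.10 in wild type and from 7.17 to 6.90 in Tlr4-/-. Its 4 arrays spanned 0.27, close to the spread between arrays, and the gene was not called without the filter (limma adjusted p = 0.941).

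**Figure D2:**
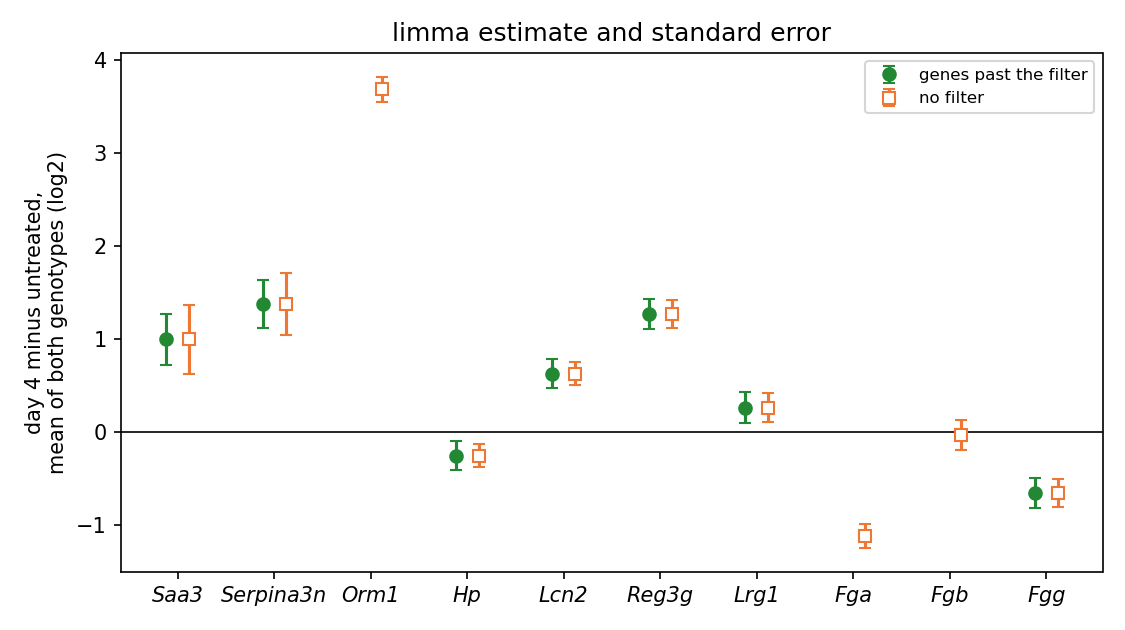
Difference between day 4 and untreated arrays averaged over both genotypes (log2, y axis) for each member, with limma standard errors. Filled green circles are the fit on the 9097 brighter genes, which holds 7 of the members, and open orange squares the fit on all 18194 genes; Orm1 at 3.69 and Fga at -1.12 appear in the second only.

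In the fit on the 9097 brighter genes, 4 of the 7 members that passed the filter were called higher for the average of both genotypes, namely Saa3, Serpina3n, Lcn2 and Reg3g, where 7.18% of all tested genes were. For Saa3 the average rests on wild type, since its difference in Tlr4-/- was within the spread between arrays, and Serpina3n passed the filter only through its day 4 signals. Fgg was the 1 member that fell, against 2.53% of genes. The fit without a filter called 2 of 10 members higher, Orm1 and Reg3g (1.75% of all genes), and 1 lower, Fga (0.264%). Reg3g is thus the single member called with and without the filter. With 1 array left out and no genotype term in the fit on brighter genes, 0 members were called higher without either day 4 array, where 18 and 0 of the 9097 genes were called higher in all. Without the wild-type untreated array 2 members and 375 genes were called higher.

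**Figure D3:**
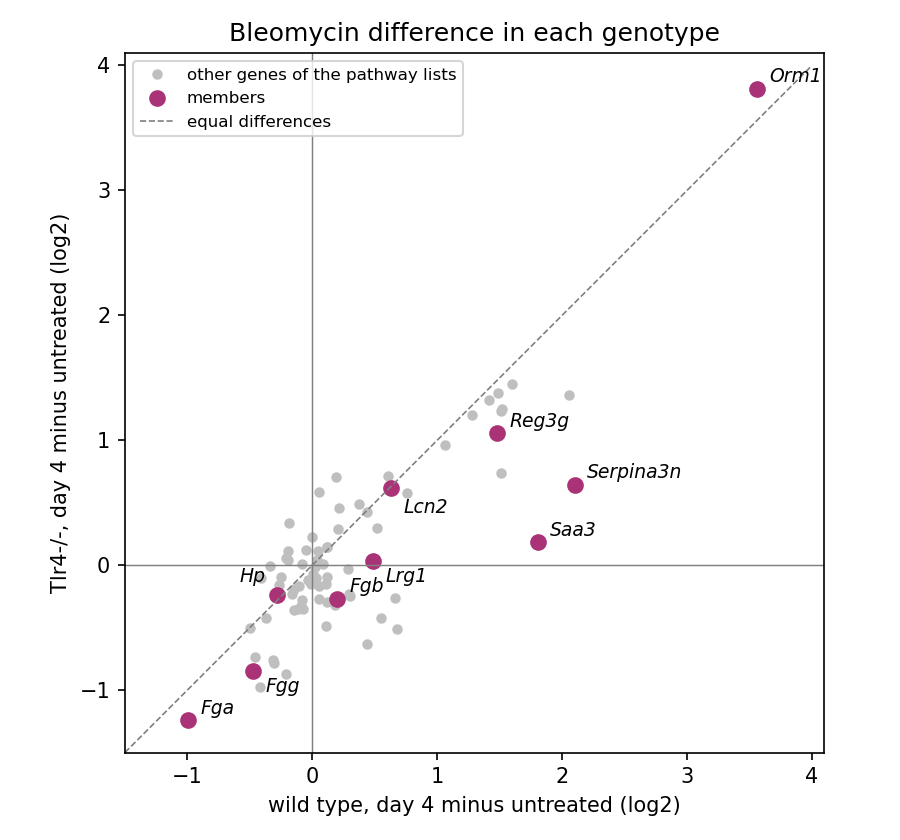
Difference between day 4 and untreated (log2) in wild type (x axis) and in Tlr4-/- (y axis) for the 10 members (purple, named) and the other measured genes of the pathway lists (grey); the dashed line marks equal differences. Saa3 (1.81 and 0.18) and Serpina3n (2.10 and 0.65) lie farthest below the line, and Orm1 (3.56 and 3.81) lies near it.

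The difference between the bleomycin responses, Tlr4-/- minus wild type, was largest for Saa3 (-1.62) and Serpina3n (-1.46). These were the 2 members past 2-fold in this comparison, in which 0.808% of all genes were at least 2-fold lower without a filter, and 0.846% of the brighter genes. No member was 2-fold higher (0.868% of all genes, 0.671% of the brighter genes). Lrg1, Reg3g, Fgb and Fgg followed at -0.45, -0.42, -0.47 and -0.37. Orm1 (0.26), Hp (0.04) and Lcn2 (-0.02) differed little or the other way. With 4 arrays this difference has no residual degree of freedom and was not tested.

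Between the genotypes, Saa3 and Serpina3n had the largest differences of the members in untreated cells and Reg3g at day 4. Untreated, Saa3 was 3.20-fold and Serpina3n 2.15-fold higher in Tlr4-/- than in wild type, 2 of 10 members where 0.731% of all genes and 0.78% of the brighter genes were at least 2-fold higher. No member was 2-fold lower (0.462% of all genes, 0.341% of the brighter genes). Saa3 ranked 11 of 18194 genes in this comparison and Serpina3n 85. The other 8 members differed by 0.31 or less in size. Reg3g was lower in Tlr4-/- by -0.31, and Fga, Fgb and Fgg were higher by 0.23, 0.27 and 0.24, at or just beyond the spread between arrays. This comparison shares the wild-type untreated array with the wild-type bleomycin difference, so the low Saa3 and Serpina3n signals of that array enter both.

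At day 4 no member reached 2-fold between the genotypes (0 of 10, against 0.0989% of genes higher and 0.0495% lower, or 0.044% and 0.055% of the brighter genes). Reg3g was 1.66-fold lower in Tlr4-/-, at rank 44 from the lowest of 18194 genes, Serpina3n lower by -0.35 and Lrg1 by -0.25, while Orm1 was higher by 0.23. Saa3 differed by 0.06, Lcn2 by -0.03 and Fga by -0.01. Across both treatments limma called 0 of 7 members for genotype and 0% of genes, while 2 members, Reg3g and Saa3, had an unadjusted p under 0.05, as did 822 of the 9097 genes (limma adjusted p = 0.336 and 0.338). Reg3g was lower in Tlr4-/- by 0.52 ± 0.17 on average (lower in 2 of 2 treatments) and Saa3 was higher by 0.87 ± 0.28 (higher in 2 of 2). With the wild-type untreated array left out and no treatment term, which sets both Tlr4-/- arrays against wild type at day 4, the Saa3 value was -0.03.

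**Figure D4:**
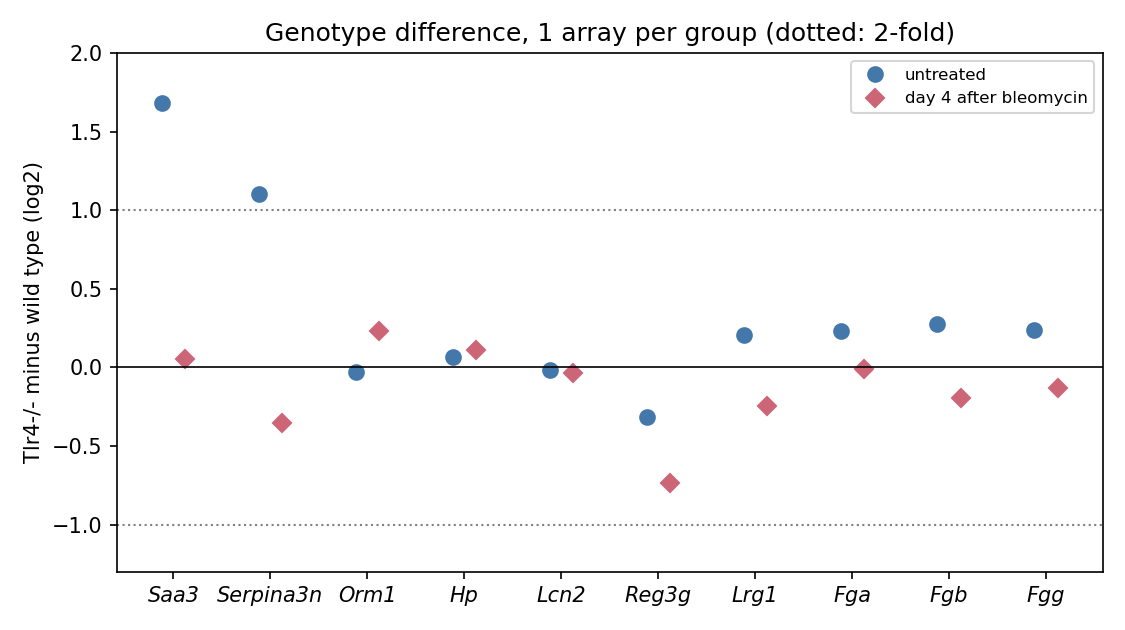
Tlr4-/- minus wild type (log2, y axis) for each member, untreated (blue circles) and at day 4 (red diamonds), 1 array per group, with dotted lines at 2-fold. The untreated differences of Saa3 (1.68) and Serpina3n (1.10) lie above the upper line, and the day 4 difference of Reg3g (-0.73) is the lowest of the members.

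Other acute phase proteins were measured by 30 of 36 listed genes, of which 11 passed the filter. Of these, 5 were called higher after bleomycin across both genotypes and 2 lower, where 7.18% and 2.53% of all tested genes were. Slpi, an inhibitor of neutrophil elastase, went from 10.66 in wild type and 11.01 in Tlr4-/- to 12.26 and 12.46 and rose by 1.52 ± 0.16 (SE, limma, 2 of 2 genotypes, adjusted p = 6.96e-05). The complement factor gene Cfb rose by 1.38 ± 0.16, the metallothionein gene Mt2 by 1.37 ± 0.16, the IL-1 receptor antagonist Il1rn by 1.12 ± 0.19 and the fibrinogen-like gene Fgl1 by 0.66 ± 0.16. Itih4, which is raised in the liver acute phase, fell by 0.70 ± 0.17 and the complement gene Hc fell by 0.59 ± 0.16. Without the filter, Slpi, Cfb and Mt2 were still called, and Il1rn, Fgl1, Itih4 and Hc were not (limma adjusted p = 0.0710, 0.0759, 0.126 and 0.111). Tnfaip6, which moves heavy chains onto hyaluronan, was dim, at 4.06 and 4.09 untreated and 5.12 and 5.05 at day 4. The haem carrier gene Hpx read 5.48 in wild type and 6.52 in Tlr4-/- untreated, and 6.160 and 6.005 at day 4. The liver pentraxin gene Crp lay between 4.01 and 4.31. Of the genes that fall in the liver acute phase, 0 of 3 past the filter were called by limma and 2 had an unadjusted p under 0.05, with Alb lower by -0.50 in both genotypes.

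Among the inducing cytokines and receptors, 17 of 18 were on the array. Of the 9 past the filter, 3 were called higher and 0 lower, where 7.18% and 2.53% of all tested genes were. Lif rose by 1.43 ± 0.16, Osm by 1.37 ± 0.16 and Il1b by 1.24 ± 0.16 (SE, limma, each higher in 2 of 2 genotypes, adjusted p = 0.000106, 0.000171 and 0.000301). Il6, the main inducer of liver acute phase genes, was below the filter, at 5.79 in wild type and 5.53 in Tlr4-/- untreated and 7.84 and 6.90 at day 4. The day 4 arrays were higher, 4.16-fold in wild type and 2.57-fold in Tlr4-/-, and Il6 rose by 1.71 ± 0.19 without the filter (SE, limma, adjusted p = 0.025). The receptor genes Il6ra, Il6st, Osmr and Lifr did not pass.

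None of the 17 transcription factors and feedback genes were called for bleomycin in the fit on brighter genes (limma adjusted p under 0.05). Of all tested genes, 7.18% were called higher and 2.53% lower. At an unadjusted limma p under 0.05 there were 3 of 17, against 2176 of the 9097 genes. Bcl3, an IkB-like partner of NF-kB, read 8.48 in wild type and 9.88 in Tlr4-/- untreated, and 9.03 and 9.46 at day 4. It was 2.64-fold higher in the untreated Tlr4-/- array, the only gene of this list past 2-fold in any of the 4 differences between single arrays. Cebpd, chosen here after its values were seen, was 1.78-fold higher in that array, at 11.60 against 10.77. The median of this list between the untreated genotypes was 0.03, with 10 of 17 genes higher in Tlr4-/-. Stat3 lay between 9.45 and 9.58 on all arrays, and Socs3, a feedback inhibitor of STAT3, between 9.80 and 10.11.

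By the distance between centred profiles over the 4 arrays, the brighter genes closest to Saa3 were Slc12a4, Cyp3a13 and Cmas (distances of 0.33, 0.37 and 0.38 in log2 units). Each had its lowest signal on the wild-type untreated array, as Saa3 did, which the choice by distance favours. Closest to Serpina3n were Myo7a, Sema3c and Cdkn1a (0.31, 0.38 and 0.39). For Orm1, which is not among the brighter genes itself, Ifi27l2a, C1qb and Usp18 came first, at 0.90, 1.10 and 1.11. Dimmer genes were not searched, and the distances are not scaled for the wide range of Orm1. With 4 arrays, closeness is a description of these arrays alone.

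**Figure D5:**
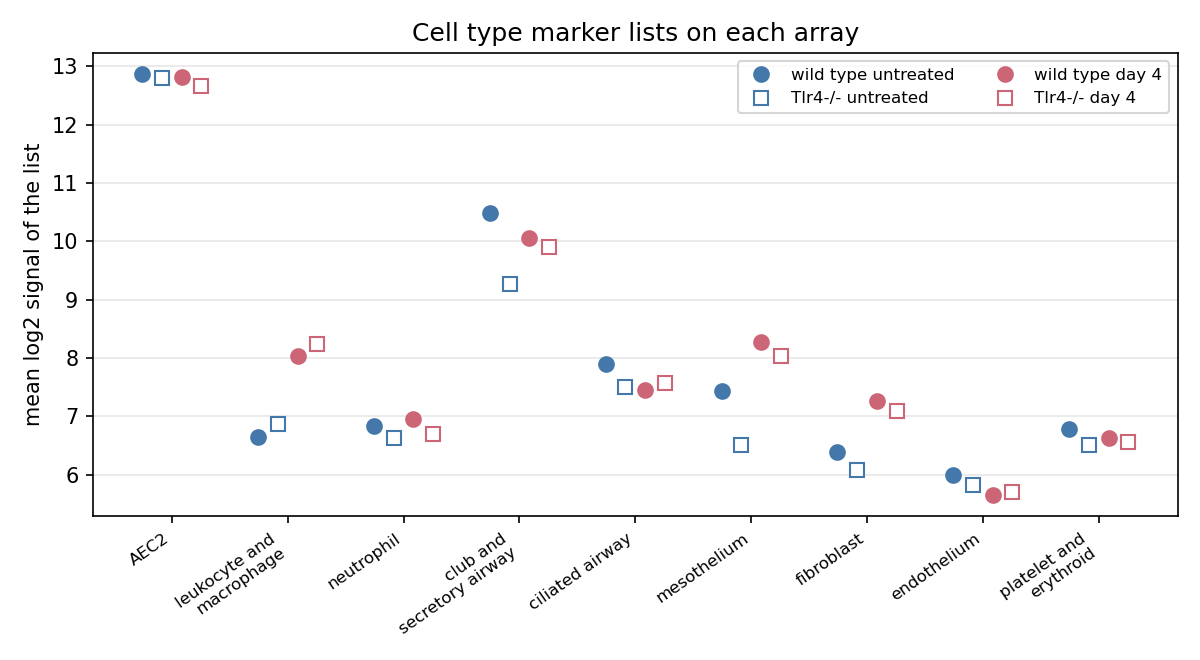
Mean log2 signal of each marker list (y axis) on the 4 arrays, drawn with the symbols of the plot of member signals. Leukocyte and macrophage markers are at 6.64 and 6.86 untreated and at 8.04 and 8.23 at day 4, and club and secretory airway markers are lowest on the Tlr4-/- untreated array, at 9.26.

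Several members are also made by neutrophils, macrophages, airway secretory cells or mesothelium, and markers of these cells were measured in the same pools. Of the leukocyte and macrophage markers, 9 of the 10 past the filter rose after bleomycin, where 7.18% of all tested genes did. The filter uses the mean over all 4 arrays, so markers high at day 4 passed it more readily. Of all 15 on the array, 9 were at least 2-fold higher in wild type and 8 in Tlr4-/- (1.82% and 1.88% of all genes). Their summed signal went from 2187 in wild type and 2222 in Tlr4-/- to 5532 and 7010. Of 4 mesothelial markers past the filter 4 rose, and of 2 fibroblast markers 1. Counting those below the filter, 2 of 6 mesothelial markers were at least 2-fold higher in wild type and 5 in Tlr4-/- (medians of 0.92 and 1.54). For fibroblast markers it was 4 of 7 in each genotype (medians of 1.24 and 1.05). Neutrophil markers had 1 of 3 past the filter that rose, Ltf, and the list's mean went from 6.84 and 6.63 to 6.95 and 6.69. Its summed signal over 11 markers went from 4367 and 3127 to 4966 and 3516. S100a9, the brightest of the list, read 11.09 and 10.48 untreated and 11.26 and 10.46 at day 4, and S100a8 lay between 10.12 and 10.65. The neutrophil granule genes Mpo and Elane lay between 4.29 and 5.20 and Camp between 6.62 and 6.92. Club and secretory airway markers had a median bleomycin difference of -0.38 in wild type, with 0 of 9 higher at day 4. In Tlr4-/- the median was 0.51, with 8 of 9 higher. In wild type 1 of 9 was at least 2-fold lower (0.445% of all genes), and in Tlr4-/- 3 were at least 2-fold higher (1.88%). The part of these cells in the higher signals of Orm1, Saa3, Serpina3n, Lcn2 and Reg3g was not tested.

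In the untreated Tlr4-/- array, where Saa3 and Serpina3n were higher than in wild type, the club and secretory airway markers were lower in 9 of 9 (median -1.49), the mesothelial markers had a median of -0.88 and the neutrophil markers of -0.23. The leukocyte and macrophage median was 0.01, with 9 of 15 markers higher in Tlr4-/- and the rest not. At least 2-fold higher was 1 of 15 (0.731% of all genes), namely Siglecf, a marker of alveolar macrophages, at 4.79 in wild type and 7.08 in Tlr4-/-. Ptprc, also among the 9, was 6.69 and 7.41. At day 4, where Reg3g was lower in Tlr4-/-, the club median was -0.06 and the neutrophil median -0.25. Also lower were the medians of mesothelial (-0.26), fibroblast (-0.21), AEC2 (-0.10) and platelet and erythroid markers (-0.06). Those of leukocyte and macrophage (0.24), ciliated airway (0.19) and endothelial markers (0.09) were higher. The part of any of these cells in the Saa3, Serpina3n and Reg3g differences between genotypes was not tested. The Y-linked gene Eif2s3y went from 6.82 in wild type and 6.86 in Tlr4-/- untreated to 8.85 and 8.87 at day 4, and Xist, made from the inactive X chromosome, from 11.41 and 11.30 to 10.79 and 10.04. The part of the sex of the pooled mice in these differences was not tested.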

How the data were processed

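The members, gene lists and tests were chosen with earlier results of these data known. Per the labels' protocols, AEC2 RNA was extracted with Trizol, amplified as cDNA and labelled with biotin. The deposited values have the range of log2 signals and were taken as such. The sources used here do not give the authors' software or normalization. Of 45101 probe sets, 34958 carried 1 gene symbol in the platform annotation, 932 several and 9211 none. Of those with 1 symbol, 34754 matched the RefSeq table (GRCm38.p6) by Entrez identifier. Probe sets were averaged per gene, and genes with a mean above the median of 7.05 were kept (9097 of 18194).

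Differences between single arrays were taken as 2-fold or not, with no test. Treatment and genotype were fitted together with limma 3.58.1 in R 4.3.3 (1 residual degree of freedom, trend and robust off) and called at a Benjamini-Hochberg adjusted p under 0.05. A difference between the genotypes' responses counts as error. The bleomycin fit was tried on simulated data (20 sets, 9097 genes each) with independent noise, no genotype effect and equal responses in both genotypes. It recovered a median of 98% of 2-fold and 100% of 4-fold changes. A median of 11.0% of its calls were false, above the rate of 0.05 aimed at. Genes whose response differs between the genotypes were not simulated, so these rates do not carry over to them. The number of arrays limits the precision. All members were named; pathway genes were named where called or past 2-fold, up to 8 per list. Other examples were chosen after their values were seen.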

Additional observations from a re-analysis of the deposited data

Results flagged for a closer look

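In each of the following the 2 arrays of one comparison moved in opposite directions from those of the other, and with 1 array per group none of these differences was tested. Between day 4 and untreated arrays, the genotype difference of Serpina3n changed by -1.46, from 1.10 to -0.35, with both sides beyond the spread between arrays. The same held for Il1rn (a change of -0.78, from 0.48 to -0.30). The bleomycin difference had opposite signs beyond that spread for Hpx (0.68 in wild type and -0.51 in Tlr4-/-, differing by -1.19) and Bcl3 (0.55 and -0.42, differing by -0.97). Fgb had opposite bleomycin differences of 0.20 and -0.27, differing by -0.47, as did its genotype differences of 0.27 and -0.19.

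For 6 more genes the genotype difference changed sign with at least 1 side within the spread between arrays. These were Orm1 (a change of 0.26), Lrg1 (-0.45), Fga (-0.24), Fgg (-0.37), Itih4 (-0.55) and Osm (-0.27). Tnfaip6 (-0.10) also changed sign, with both sides within it, and the genotype difference of Hpx went from 1.04 to -0.16.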

How the results depend on the processing

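No paired analysis was possible because each group has 1 array. None of the 175 member differences between single arrays under other normalizations, filters or probe set rules moved by more than the spread between arrays. Of those at least 2-fold in size, 0 changed sign. Sign changes of smaller differences were not counted. After centring, the bleomycin difference of Lrg1 in Tlr4-/- went from 0.03 to -0.007. The Lcn2 difference between the responses went from -0.02 to 0.003. Each member has 1 probe set, so the filters and probe set rules could not change its value. Quantile normalization and centring alone could, and Orm1, Fga and Fgb, below the filter, were not followed under these. Counts over members past each filter changed with the filter: at the upper quartile, members at least 2-fold higher went from 3 to 1 in wild type after bleomycin and from 2 to 0 between untreated genotypes, and those 2-fold lower in the difference of responses from 2 to 0. Without a filter Tlr4-/- had 2 higher in place of 1 and 1 lower in place of 0.

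The limma count of members that rose was 4; it was 1 with arrays centred on their median or with the brightest probe set per gene, and 2 without the filter, at the upper quartile, with trend and robust on, or on single probe sets. Leaving out 1 array and the other factor gave 0 to 4. The count that fell was 1, and 0 after centring, with the brightest probe set, at the upper quartile or on single probe sets; it was 0 to 1 leaving out 1 array. Alternatives added after seeing the data, without a filter, gave 2 that rose after quantile normalization or centring, and 0 to 3 that rose and 0 to 1 that fell leaving out 1 array. Over all genes, the 653 and 230 calls became 319 and 48 without the filter, 271 and 100 after centring, 279 and 62 with the brightest probe set, 18 and 3 without the wild-type day 4 array and 0 and 0 without the Tlr4-/- day 4 array. Without the wild-type untreated array 375 rose. At the upper quartile, genotype had 14 and 4 calls where the fit on brighter genes had 0. The cause was not tested.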
